A study of Mus musculus with 7 samples.

Results

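The melanocortin system of the hypothalamus was described here through 9 genes: the peptide precursors Pomc, Agrp, Npy and Cartpt, the melanocortin receptors Mc3r and Mc4r, and the processing enzymes Pcsk1, Pcsk2 and Cpe. Every probe set that the platform annotation gives to only one of these symbols was taken, which gave 8 probe sets of 6 genes among 18193 genes with a probe set of their own. Agrp, Mc4r and Pcsk2 had no probe set named in that annotation and were not analysed here. The values come from hypothalami dissected at 3 months of age and hybridised to Affymetrix mouse430_2 arrays, 1 array per sample. There were 3 arrays from Creb-PomcCre-/- mice, in which Creb was deleted with a Cre recombinase expressed in Pomc cells, and 4 arrays from wild type mice. The labels do not say which alleles, if any, the wild type mice carried, nor how many mice gave the RNA of 1 sample. The study asked which genes lie downstream of CREB in the arcuate neurons that control appetite.

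Pomc neurons of the arcuate nucleus lower food intake by releasing melanocortin peptides, which are cut from the Pomc precursor and act on the receptors encoded by Mc3r and Mc4r. Neighbouring neurons that express Agrp and Npy have the opposite effect: the Agrp peptide blocks melanocortin receptors, and neuropeptide Y stimulates feeding. Many Pomc neurons of rodents also make the peptides encoded by Cartpt. Precursors are cut after basic residues by the convertases encoded by Pcsk1 and Pcsk2, and the exposed basic residues are removed by carboxypeptidase E, the product of Cpe.

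None of the 8 probe sets passed the threshold, an adjusted p under 0.05 over all 45037 probe sets tested (limma, two-sided, Benjamini-Hochberg), and 0 of the 8 had an unadjusted p under 0.05. Over all probe sets, 0.00666% passed the first threshold and 10.6% the second. The mean was higher in knockout for 7 of the 8 probe sets, where 53.2% of all probe sets were higher, and the median difference was 0.18 on the log2 scale, against 0.0084 over all probe sets. Levels below are log2 expression values, and differences are knockout minus wild type on the same scale, with limma's standard error (SE) and 95% interval. In whole hypothalamus, fewer cells of a type and less RNA per cell cannot be told apart.

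Pomc, the precursor of the melanocortins and of beta-endorphin, was measured by 2 probe sets. On probe set 1433800_a_at the knockout arrays 1 to 3 read 10.30, 9.68 and 9.66, and the wild type arrays 1 to 4 read 10.28, 9.24, 9.49 and 9.69. The groups overlapped over most of their range, since array 1 was the highest of its genotype in both and wild type array 2 was the lowest of all. Means were 9.88 ± 0.36 in knockout (SD, n = 3) and 9.67 ± 0.45 in wild type (SD, n = 4), a difference of 0.21 ± 0.24 (SE) that did not pass (limma, adjusted p = 0.784). The interval of that difference ran from -0.33 to 0.74, or 0.796-fold to 1.67-fold, and so included both a lower and a higher Pomc mRNA level in the whole tissue. Without knockout array 1 the difference was -0.0022, without wild type array 1 it was 0.41, without wild type array 2 it was 0.061 and without knockout array 3 it was 0.31. The other Pomc probe set, 1455858_x_at, read 9.73, 8.99 and 9.11 in knockout, against 9.63, 8.56, 8.98 and 9.05 in wild type. It differed by 0.22 ± 0.24 (SE; limma, adjusted p = 0.774), so that both probe sets gave the same order of extremes and nearly the same difference.

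Cartpt, the precursor of the satiety peptides known as CART, read 11.85, 11.62 and 11.36 in knockout, against 11.69, 11.004, 11.31 and 11.28 in wild type (probe set 1422825_at). All 3 knockout arrays lay above wild type arrays 2 to 4, and wild type array 1 lay above knockout arrays 2 and 3. The difference of 0.29 ± 0.16 (SE), or 1.22-fold, was the largest of the 8 and did not pass (limma, adjusted p = 0.534; interval -0.062 to 0.64). Leaving out knockout array 1 gave 0.17, and leaving out wild type array 2 gave 0.18.

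Npy, the precursor of the feeding-stimulating neuropeptide Y, read 9.71, 10.81 and 10.68 in knockout, against 9.99, 10.05, 10.36 and 10.61 in wild type (probe set 1419127_at). Knockout array 1 was the lowest of all arrays and knockout arrays 2 and 3 were the highest, so that the knockout values enclosed those of wild type. Means were 10.40 ± 0.60 (SD, n = 3) in knockout and 10.25 ± 0.29 (SD, n = 4) in wild type, a difference of 0.15 ± 0.25 (SE) short of the threshold (limma, adjusted p = 0.862; interval -0.42 to 0.72). Without knockout array 1 the difference was 0.49, without knockout array 2 it was -0.057 and without knockout array 3 it was 0.0053. Leaving out wild type array 1, 2 or 4 gave 0.059, 0.080 or 0.27. Agrp, made by the same neurons as arcuate Npy, was not analysed here.

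**Figure D1:**
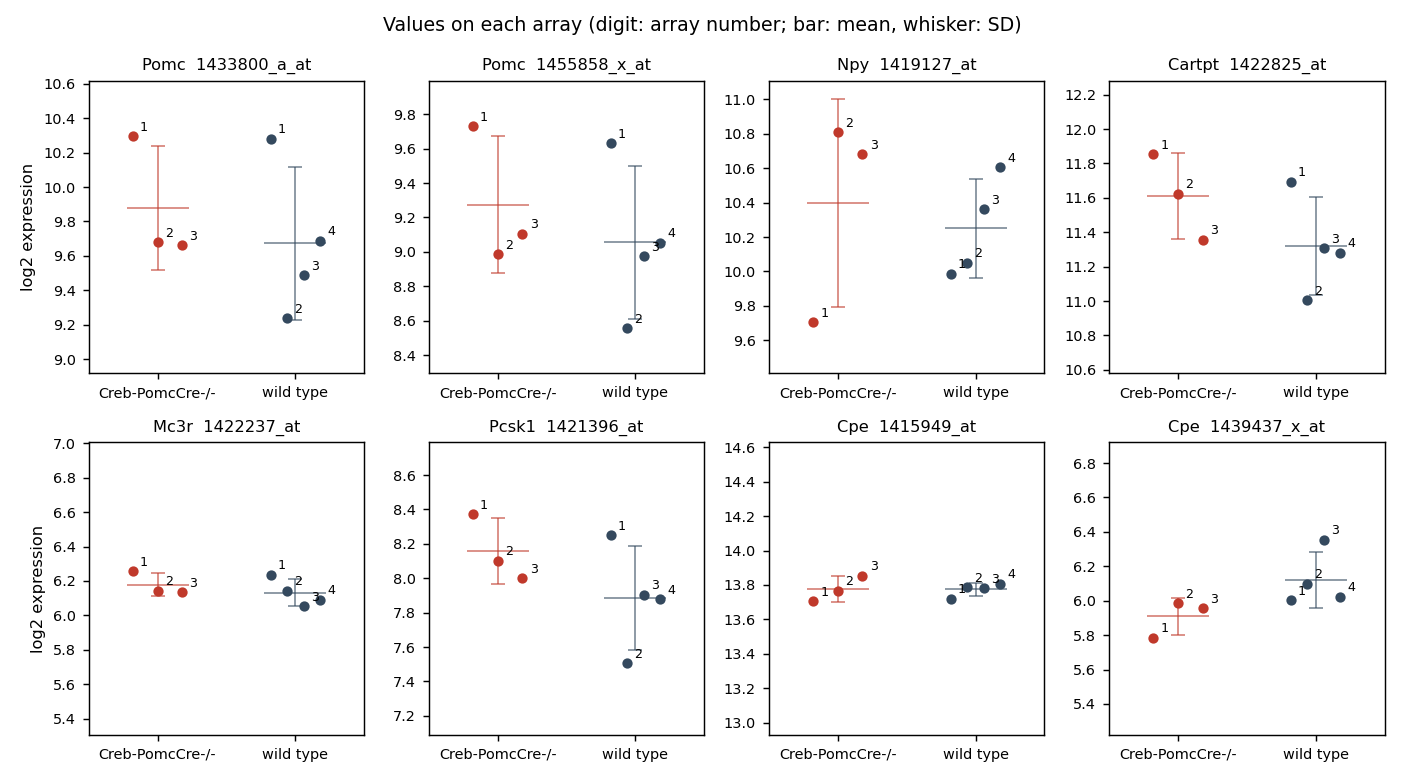
Log2 expression (vertical axes, each spanning the same 1.7 units) of the 8 probe sets on the knockout arrays (left, n = 3) and the wild type arrays (right, n = 4). Digits give the array number, horizontal bars the mean and whiskers the SD. Array 1 is the highest of its genotype for Pomc, Cartpt, Mc3r and Pcsk1 and the lowest for Npy in both genotypes.

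Mc3r, a receptor for melanocortins that is found on arcuate neurons among others, read 6.26, 6.14 and 6.13 in knockout, against 6.24, 6.14, 6.05 and 6.09 in wild type (probe set 1422237_at). The values spanned only 0.20 over the 7 arrays, and knockout differed by 0.048 ± 0.074 (SE), which missed the threshold (limma, adjusted p = 0.847; interval -0.12 to 0.22). Without knockout array 1 the difference was 0.0085, without wild type array 1 it was 0.083 and without wild type array 3 it was 0.022. Its mean level stood above that of 49.0% of all probe sets. The deposited values carry no detection call, so that a level in this middle range cannot be told from background, and a narrow spread there does not show a stable transcript. Mc4r, the receptor through which melanocortins are best known to lower food intake, was not analysed here.

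Pcsk1 encodes prohormone convertase 1/3, which makes the first cuts in the Pomc precursor. It read 8.37, 8.10 and 7.999 in knockout, against 8.25, 7.51, 7.91 and 7.88 in wild type (probe set 1421396_at). As for Cartpt, the 3 knockout arrays lay above wild type arrays 2 to 4, and wild type array 1 lay among the knockout values. Knockout was higher by 0.27 ± 0.16 (SE), or 1.21-fold, short of the threshold (limma, adjusted p = 0.563; interval -0.084 to 0.63). Leaving out knockout array 1 gave 0.17, and leaving out wild type array 2 gave 0.15.

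Cpe was measured by 2 probe sets of very different level, whose differences had overlapping intervals. The bright one, 1415949_at, read 13.70, 13.77 and 13.85 in knockout, against 13.72, 13.79, 13.78 and 13.81 in wild type. These values overlapped throughout, and the difference of 0.00084 ± 0.037 (SE) had an interval of -0.082 to 0.084, the narrowest of the 8, which bounds the change at 0.945-fold to 1.06-fold. The dim probe set, 1439437_x_at, read 5.79, 5.99 and 5.96 in knockout, against 6.002, 6.10, 6.36 and 6.02 in wild type. Its knockout values all lay below its wild type values, with knockout array 2 just under wild type array 1. The difference of -0.21 ± 0.10 (SE) was short of the threshold (limma, adjusted p = 0.501, interval -0.44 to 0.019). Without wild type array 3 it was -0.13. It was the only one of the 8 probe sets without overlap, where 11.0% of all probe sets had none and 5.02% were lower in knockout without overlap. Probe sets whose name ends in _x_at hold probes that may also match other transcripts. The mean level of 1439437_x_at stood above that of 47.4% of all probe sets. As for Mc3r, a level in this range cannot be told from background.

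**Figure D2:**
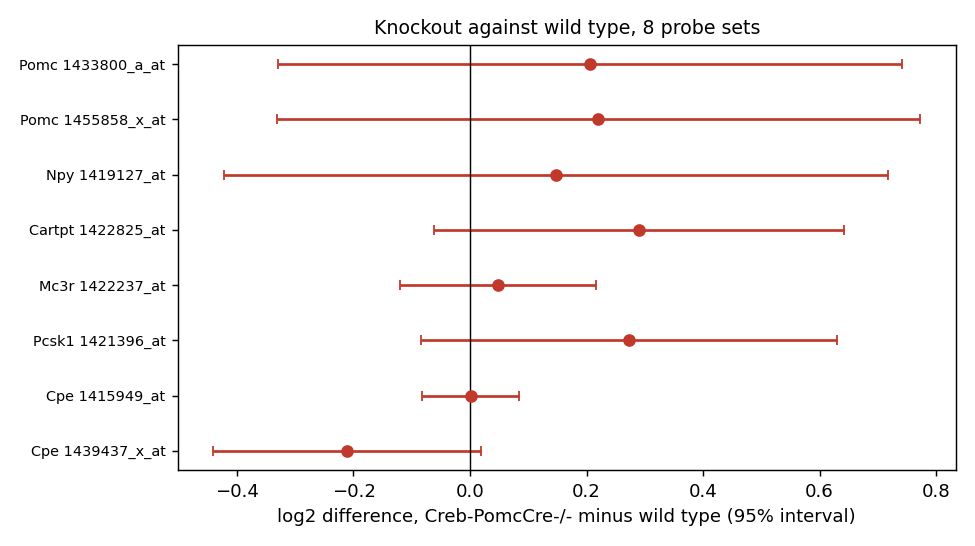
Knockout minus wild type log2 difference (points) with its 95% interval from limma (bars) for the 8 probe sets, from Pomc at the top to Cpe at the bottom. All 8 intervals include 0, and that of Cpe 1415949_at, -0.082 to 0.084, is the narrowest.

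The width of these intervals follows the spread between arrays of the same genotype. The pooled SD within genotypes was 0.41 and 0.43 for the Pomc probe sets, 0.44 for Npy, 0.27 for Cartpt and 0.27 for Pcsk1, where the median of all probe sets was 0.101. Set against probe sets of similar mean level (20 bins), the spread of Npy exceeded that of 99.4%, that of the Pomc probe sets 98.8% and 99.0%, that of Cartpt 98.7% and that of Pcsk1 95.1%. Between the highest and the lowest array Pomc 1433800_a_at differed 2.08-fold, Npy 2.15-fold and Cartpt 1.80-fold. Mc3r and Cpe 1415949_at lay lower in that order, above 16.4% and 55.7% of probe sets of their level. The most variable members were thus the peptide genes and Pcsk1, and the precision for them was the lowest.

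**Figure D3:**
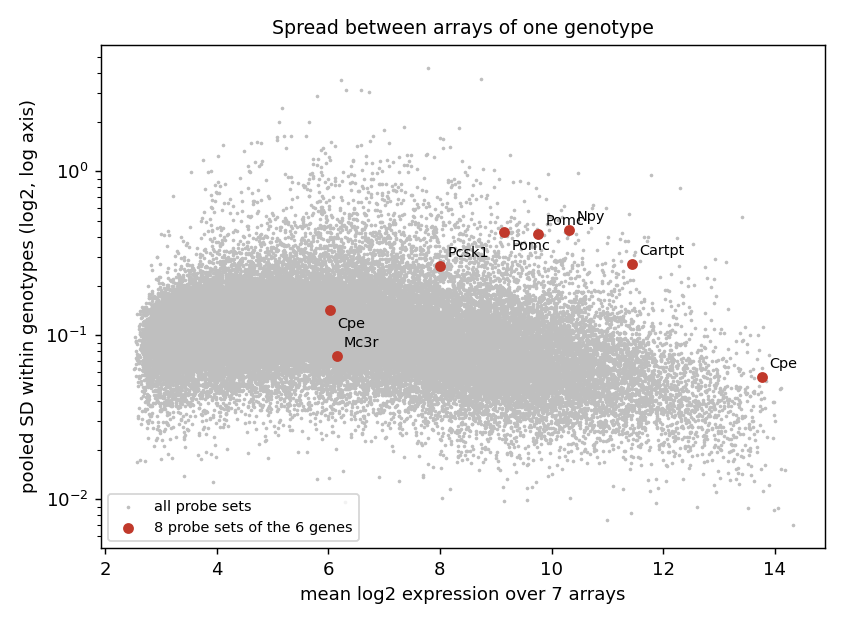
Pooled SD within genotypes (vertical, log axis) against mean log2 expression over 7 arrays (horizontal) for all 45037 probe sets (grey) and the 8 probe sets of the 6 genes (red). Pomc, Npy, Cartpt and Pcsk1 lie near the upper edge of the cloud at their level, between 0.27 and 0.44.

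Part of this spread was shared between members. Over the 15 pairs of the 6 genes (brightest probe set of each, n = 7 arrays), 3 pairs had an adjusted p under 0.05 by an exact permutation test of Pearson's r (two-sided, Benjamini-Hochberg over the 15 pairs). Cartpt and Pcsk1 followed each other most closely, with r = 0.979 (exact permutation p = 0.0002, the smallest that 7 arrays can give; adjusted p = 0.003) and Spearman's rho = 1 (exact permutation p = 0.0004; adjusted p = 0.006). The 7 arrays therefore stood in the same order for both genes, from wild type array 2 at the bottom to knockout array 1 at the top. Pomc and Pcsk1 had r = 0.922 (exact permutation p = 0.00377; adjusted p = 0.0188) and rho = 0.786 (exact permutation p = 0.048; adjusted p = 0.124). Pomc and Cartpt had r = 0.907 (exact permutation p = 0.00317; adjusted p = 0.0188) and the same rho. The 2 arrays farthest from the median of the first gene were then left out. Over 5 arrays r was 0.961 for Cartpt and Pcsk1, 0.898 for Pomc and Pcsk1 and 0.805 for Pomc and Cartpt. None of the 3 passed (exact permutation, adjusted p = 0.125, 0.25 and 0.339 in the same order). The smallest exact permutation p that 5 arrays can give is 0.00833, which adjusts to 0.125 for a lone pair of the 15. Passing was thus nearly out of reach, and these adjusted p do not decide whether the 3 correlations held. With each genotype centred on its own mean, r over 7 arrays was 0.971, 0.945 and 0.932 in the same order.

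A small share of other genes followed the members at least as closely. Of 11732 genes above the median level (brightest probe sets), 8 (0.0682%, Cartpt included) correlated with Pcsk1 at least as strongly as Cartpt did. With Cartpt, 2 (0.017%, Pcsk1 included) correlated at least as strongly as Pcsk1 did. Pcsk1 ranked 59 (0.503%) and Cartpt 98 (0.835%) among the genes most correlated with Pomc.

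Npy did not follow this order. Pomc and Npy had r = -0.482 over 7 arrays (exact permutation p = 0.269; adjusted p = 0.311; rho = -0.393, exact permutation p = 0.396), which did not pass. That value rests on the arrays numbered 1: without them, which are also the 2 farthest from the median of Pomc, r was 0.964 over 5 arrays (exact permutation p = 0.0333; adjusted p = 0.156). In both arrays numbered 1, Pomc was at its highest and Npy at or near its lowest, while in the other 5 arrays a higher Pomc value tended to go with a higher Npy value. With Cartpt and Pcsk1, Npy had r = -0.296 and -0.242 over 7 arrays, and 0.905 and 0.938 without the arrays numbered 1.

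**Figure D4:**
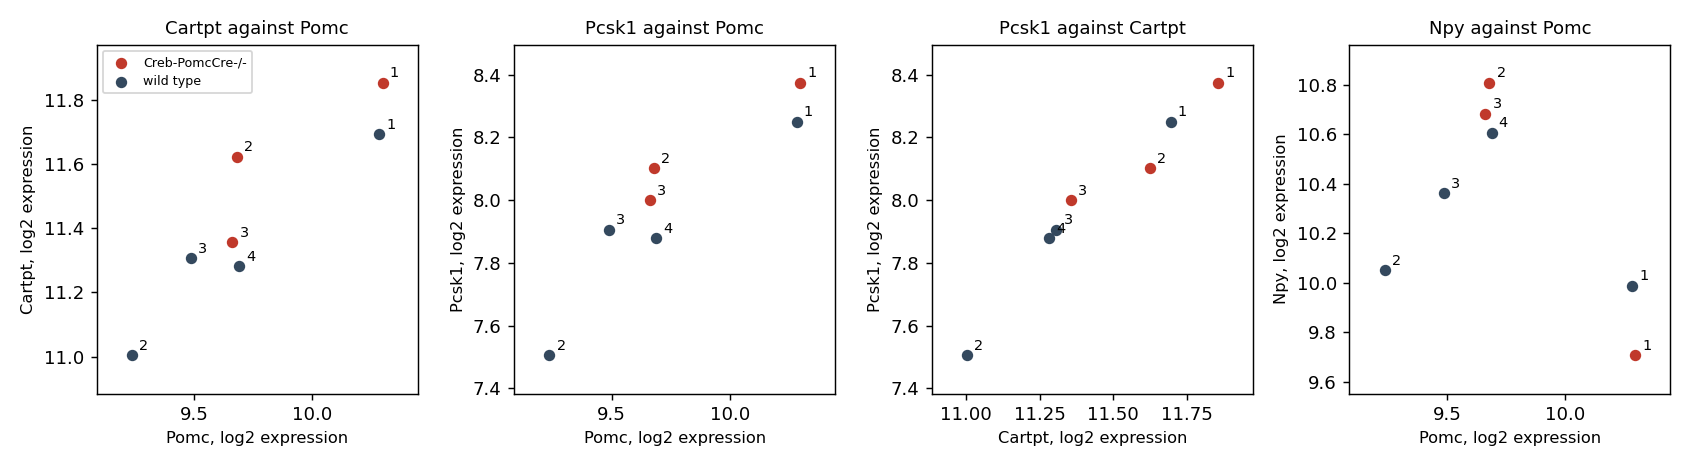
Log2 expression of Cartpt, Pcsk1 and Npy against Pomc, and of Pcsk1 against Cartpt, for the 3 knockout arrays (red) and 4 wild type arrays (dark), numbered as in the labels. Cartpt and Pcsk1 put all 7 arrays in 1 order (rho = 1), and the arrays numbered 1 stand apart from the other 5 in the panel of Npy against Pomc.

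The promoter table of RefSeq (build GRCm38.p6) held 5 of the 6 genes, and the 250 bases before their start were searched for the palindromic cyclic AMP response element TGACGTCA, the site that CREB is known to bind. Cartpt and Pcsk1 held it and Pomc, Npy and Mc3r did not. The element was present in 1.55% of the 32851 promoters of the table. It began 112 bases before the start in Cartpt and 78 bases before it in Pcsk1. The sites are shown with 11 bases on either side, in capitals, because only these 2 of the 5 promoters hold the element. Cartpt is at chr13:99900777-99900806 on the minus strand and Pcsk1 at chr13:75089768-75089797 on the plus strand, and other annotated transcripts of both genes start further upstream.
Cartpt: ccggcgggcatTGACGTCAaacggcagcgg
Pcsk1: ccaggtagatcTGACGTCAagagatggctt
The half-site TGACG, searched on both strands, was found 2 times in Cartpt, 3 times in Pcsk1 and 0 times in Pomc, Npy and Mc3r. The full element is a palindrome that contains the half-site on each strand, so each full element gives 2 of these matches. Cartpt thus had no half-site outside its full element, and the only match outside a full element was in Pcsk1. The half-site was present in 17.8% of all promoters. For comparison, the last 60 bases before the start of Pomc, at chr12:3954885-3954944 on the plus strand, hold a TATA box (TATAAA, in capitals; searched on the sense strand and present in 7.59% of promoters).
Pomc: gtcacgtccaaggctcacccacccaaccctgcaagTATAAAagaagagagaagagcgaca
A match is a stretch of letters and not a measured site, and binding was not measured here.

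Array-level values moved with the members. Xist was high on 3 arrays (knockout 1 and wild type 1 and 4) and transcripts of the Y chromosome on the other 4, so that by these transcripts knockout held 1 female and 2 male arrays and wild type held 2 of each. Female minus male means over both genotypes were 0.57 for Pomc 1433800_a_at, 0.29 for Cartpt, 0.29 for Pcsk1 and -0.38 for Npy. Within male arrays, the knockout minus wild type difference was 0.31 for Pomc 1433800_a_at, 0.33 for Cartpt, 0.34 for Pcsk1 and 0.54 for Npy. Within female arrays, with a single knockout array, it was 0.31, 0.37, 0.31 and -0.59 in the same order. The first 3 genes thus differed in the same direction within each sex and Npy did not. The male wild type arrays were 2 and 3, which had the highest thalamic (0.90, array 2) and meningeal (1.21, array 3) scores described below. Sex and region thus overlap in wild type, so the male differences and the fit with sex do not separate them. With sex as a covariate, the difference of Pomc 1433800_a_at was 0.31 ± 0.13 (SE), and 0 of the 8 probe sets passed (limma, lowest adjusted p = 0.363). With sex in the fit, 4 of the 8 had an unadjusted p under 0.05, where 11.4% of all probe sets did. These were Pomc 1433800_a_at, Cartpt and Pcsk1, all higher in knockout, and Cpe 1439437_x_at, lower at -0.24.

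Arrays with the same number also shared a sex by these transcripts, female in pair 1 and male in pairs 2 and 3, so that number and sex overlap. Knockout minus wild type was 0.015, 0.44 and 0.18 in pairs 1, 2 and 3 for Pomc 1433800_a_at, 0.16, 0.62 and 0.049 for Cartpt, and 0.12, 0.60 and 0.093 for Pcsk1. For Npy it was -0.28, 0.76 and 0.32. All 3 pairs were higher in knockout for 5 of the 8 probe sets, where 18.5% of all probe sets had such pairs. These were both of Pomc and those of Cartpt, Mc3r and Pcsk1. Pair 2 gave the largest difference for Pomc, Cartpt, Pcsk1 and Npy. With the replicate number as a block, 5 of the 8 probe sets had an unadjusted p under 0.05, where 9.89% of all probe sets did. None passed (limma, lowest adjusted p = 0.491). Those under 0.05 were both of Pomc, Cartpt and Pcsk1, all higher, and Cpe 1439437_x_at, lower at -0.24. They are not 5 separate results, since 2 are of Pomc and Cartpt and Pcsk1 had r = 0.979.

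The region of brain in each sample was read from marker lists, as the median deviation of a list's members from their means over all arrays. For 9 arcuate markers, among them Ghrh, Tac2 and Th, this score was 0.14, 0.077 and -0.065 on the knockout arrays, against 0.11, -0.27, -0.096 and -0.080 on the wild type arrays. Of the 9, 8 were higher in knockout, where 51.5% of all genes were higher, and none passed. Their median difference was 0.16. It was 0.24 for 3 ventromedial and 0.23 for 2 lateral hypothalamic markers, all higher, and -0.016 for 6 paraventricular and supraoptic markers. The 3 arcuate markers of smallest unadjusted p were Nkx2-1 and Tbx3, described below, and Tmem176a, with a difference of 0.15 ± 0.085 (SE; limma, adjusted p = 0.555). Wild type array 2, the lowest for Pomc, Cartpt and Pcsk1, was also the lowest for the arcuate, ventromedial (-0.35), lateral hypothalamic (-0.28) and paraventricular lists (-0.21), and the highest for 8 thalamus and habenula markers (0.90). The arrays numbered 1 had the 2 highest arcuate scores. Their part in the differences of the members was not tested. Wild type array 2 had the highest score for the thalamic list and wild type array 3 for the meningeal list. Without these 2 arrays, the difference of Pomc 1433800_a_at was -0.11, that of Cartpt 0.12 and that of Pcsk1 0.094. By sex-linked transcripts these are also the only male wild type arrays, so wild type was then all female. Region and sex therefore cannot be told apart in this setting.

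**Figure D5:**
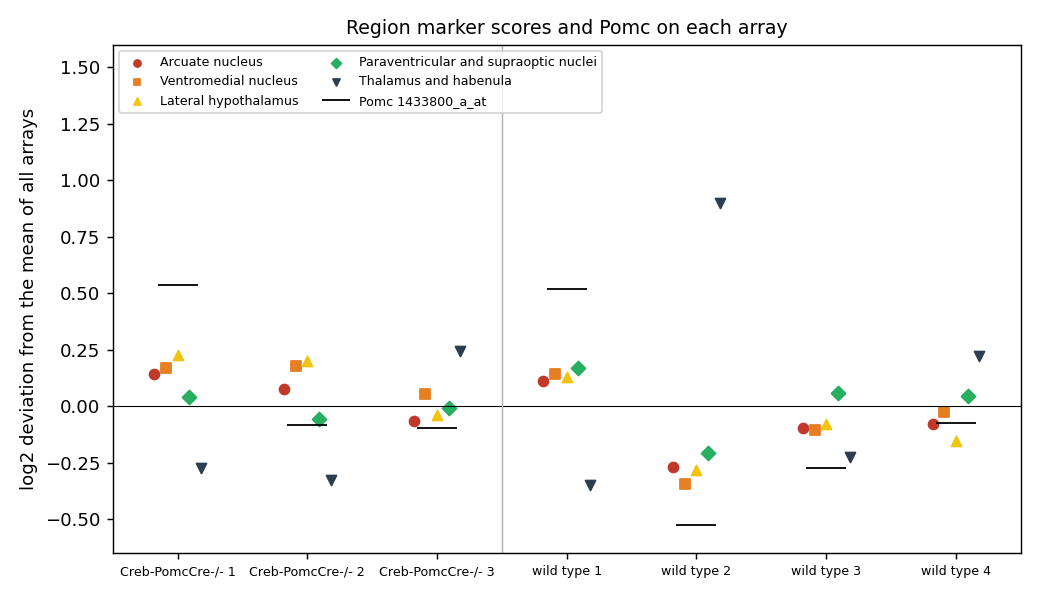
Median log2 deviation from the mean of all arrays (vertical) for 5 lists of region markers, with the deviation of Pomc 1433800_a_at as a black bar, on the 3 knockout and 4 wild type arrays (horizontal). On wild type array 2 the hypothalamic lists and Pomc are at their lowest and the thalamic list is at its highest, 0.90.

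Pituitary cells also express Pomc, so 12 pituitary markers were read on the same arrays. Of these, 9 were higher and 3 lower in knockout, where 51.5% of all genes were higher, and none passed. In 2 of the 12 the groups did not overlap, where 11.0% of all probe sets had no overlap. Pax7, a factor of pituitary melanotrophs, which express Pomc, had the smallest unadjusted p and read 4.66 to 4.76 in knockout, against 4.34 to 4.65 in wild type. Its groups did not overlap, and the difference was 0.30 ± 0.090 (SE; limma, adjusted p = 0.351). Gnrhr, the receptor gene of gonadotrophs, read 4.34 to 4.39 in knockout, against 4.43 to 4.64 in wild type, also without overlap (limma, adjusted p = 0.445). Gh and Prl, the hormone genes of the main cell types of the anterior pituitary, stayed between 5.61 and 5.97 and between 3.96 and 4.24 on all 7 arrays, spans of at most 0.36. Tbx19, a regulator of Pomc in pituitary corticotrophs, lay between 5.36 and 5.60. Pax7, Gnrhr, Gh, Prl and Tbx19 all lay under the array medians of 6.19 to 6.24. As for Mc3r, such levels cannot be told from background, so that neither their gaps nor their flat values measure pituitary content. Cga and Tshb, which are also expressed in the pars tuberalis next to the hypothalamus, read 9.23 to 9.38 and 6.78 to 7.94 in knockout, against 6.91 to 10.11 and 4.64 to 7.54 in wild type. Tshb had the second smallest unadjusted p of the list, with a difference of 1.82 ± 0.61 (SE; limma, adjusted p = 0.38). The log2 of the summed level of the list was 10.15 to 10.30 in knockout and 8.98 to 10.69 in wild type. Of 10 neuron markers, 8 were lower in knockout, where 48.5% of all genes were lower. The scores were -0.056 to -0.016, against -0.0071 to 0.077 in wild type. In 4 of the 10 the groups did not overlap, where 11.0% of all probe sets had no overlap. Rbfox3, Nefm and Syn1 had the smallest unadjusted p, with differences of -0.18, -0.18 and -0.12 and no overlap. None passed (limma, adjusted p = 0.169, 0.334 and 0.359). The other neuron markers ran from -0.089 (Syt1) to 0.031 (Tubb3), with Eno2, Map2 and Nefl at -0.0075, -0.020 and 0.0098. Rbfox3, which encodes the neuronal nuclear protein NeuN, read 11.39 to 11.44 in knockout, against 11.56 to 11.62 in wild type. The part of either list in the members' differences was not tested.

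The targeted gene, Creb1, differed by -0.11 to 0.18 over its 6 probe sets, and none passed (limma, lowest adjusted p = 0.467). This does not check the genotype, since few cells of the hypothalamus express Pomc and no source used here places these probe sets against the deleted exons. Pearson correlations between arrays ran from 0.994 to 0.997 over all probe sets.

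Other genes of the pathway were read from 4 lists, each gene by its brightest probe set, and 0 of their measured members passed in either direction. Over all 18193 genes, 51.5% were higher in knockout, 11.5% had an unadjusted p under 0.05 and the median difference was 0.0036. Of 13 melanocortin receptors and accessory genes, 9 were lower, with a median of -0.079, and 3 had an unadjusted p under 0.05. In 4 of the 13 the groups did not overlap, where 11.0% of all probe sets had no overlap. Gnas, which encodes the stimulatory G protein alpha subunit that couples melanocortin receptors to cyclic AMP, read 13.58, 13.57 and 13.55 in knockout, against 13.69, 13.67, 13.67 and 13.66 in wild type. Its groups did not overlap and the difference of -0.11 ± 0.020 (SE) had the smallest unadjusted p of the 4 lists, but did not pass (limma, adjusted p = 0.233). The 5 Gnas probe sets ran from -0.53 to 0.013. Sdc3, a proteoglycan that acts as a cofactor of Agrp in mice, and Mgrn1, a ubiquitin ligase that lowers melanocortin receptor signalling in cultured cells, both differed by -0.11 without overlap (limma, adjusted p = 0.39 and 0.403). Their dimmest probe sets went the other way, at 0.11 and 0.13.

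Of 12 genes that cleave, trim or modify prohormones or break down their peptides, 9 were lower, with a median of -0.055, and 0 had an unadjusted p under 0.05. Pam, which amidates alpha-MSH and other peptides, differed by -0.099 ± 0.053 (SE), the convertase gene Furin by -0.082, and Scg5, which encodes the chaperone of prohormone convertase 2, by -0.12. Their lowest adjusted p was 0.538 (limma). Of 7 genes of NPY family peptides and receptors, 4 were lower, with a median of -0.034, and 0 had an unadjusted p under 0.05. The receptor genes Npy1r, Npy4r and Npy5r differed by -0.11, 0.079 and 0.054. For Npy1r, wild type array 4 read 7.63, against 6.998 to 7.12 on the other wild type arrays.

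Of 10 transcription factors and coactivators of Pomc and Agrp neurons, 7 were higher, with a median of 0.055, and 3 had an unadjusted p under 0.05. Nkx2-1, a factor needed to form the ventral hypothalamus, read 5.80, 5.74 and 5.75 in knockout, against 5.65, 5.61, 5.50 and 5.58 in wild type. The groups did not overlap, where 11.0% of all probe sets had no overlap. Knockout was higher by 0.18 ± 0.070 (SE), short of the threshold (limma, adjusted p = 0.428). All its values lay under the array medians of 6.19 to 6.24, a level that, as for Mc3r, cannot be told from background. Stat3, the factor that relays leptin signalling to Pomc, differed by 0.11 ± 0.045 (SE), and Tbx3, a factor of arcuate neurons, by 0.24 ± 0.10 (SE), and neither passed (limma, adjusted p = 0.437 and 0.463). Other Stat3 probe sets ran from -0.16 to 0.033. Other Tbx3 probe sets ran from -0.032 to 0.16, and only that at -0.032 was lower. Those at -0.032, 0.13 and 0.16 lay under the array medians, where levels cannot be told from background.

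The genes most like Pomc and Npy over the 7 arrays were taken by Pearson's r among 11732 genes above the median level, as a description of these arrays. For Pomc they were Echs1, Ccdc28a, Lamtor5, Ltk and Vrk1, with r of 0.988, 0.984, 0.972, 0.966 and 0.961. Echs1 encodes a mitochondrial enzyme of fatty acid breakdown, Lamtor5 a subunit of the lysosomal Ragulator complex, Ltk a receptor tyrosine kinase and Vrk1 a nuclear kinase. For Npy they were Slc15a4, Hacd2, Idh2, Pwwp3b and Mfsd2a, with r of 0.998, 0.987, 0.981, 0.973 and 0.967. Slc15a4 encodes a lysosomal transporter of histidine and peptides, Idh2 a mitochondrial isocitrate dehydrogenase and Mfsd2a a lipid transporter of the blood-brain barrier. Mfsd2a read 8.51, 9.33 and 9.24 in knockout, against 8.54, 8.76, 9.03 and 9.36 in wild type, while Slc15a4 spanned only 8.30 to 8.66. For Pomc, 1 in 100 of these genes had an r above 0.899, and for Npy 1 in 100 had an r above 0.854.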

How the data were processed

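Log2 expression values of 45101 probe sets on 7 arrays were used as the authors deposited them. The submitters' processing notes list RMA, affy and R 2.10.0 and give no settings. Standard RMA equalises the arrays' intensity distributions and gives no detection call. The 64 control probe sets were left out, which leaves 45037: 34945 with 1 symbol in the platform annotation, 932 with several and 9160 with none.

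The genotypes were compared with limma 3.58.1 under R 4.3.3 (lmFit, eBayes with an intensity trend), fitted on and adjusted over all probe sets. Precision is limited by the number of arrays. The labels number the samples of a genotype as biological replicates. Samples with the same number deviated together from their group means over all probe sets (r = 0.258, 0.114 and 0.156), and were therefore treated as pairs in the fit with a block. With wild type array 4 left out, these were 0.281, 0.0927 and 0.170. Unequal numbers gave -0.240 to 0.0937, highest for knockout array 3 with wild type array 2, which reached 0.109 with wild type array 4 left out, above pair 2. By sex-linked transcripts pair 1 is female and pairs 2 and 3 are male, so number and sex overlap. The labels name no shared litter or day. The 36 pairs of genes planned for correlation became 15, since 3 genes had no named probe set. Permutations were enumerated with numpy 2.4.6. The fit and the permutation were tested on simulated data.

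The members, gene lists and tests were chosen with earlier results of these data known. All member probe sets are named. From each of the 4 pathway lists, the 3 genes of smallest unadjusted p are named (markers were picked after their values were seen), and for Pomc and Npy the 5 genes of highest r. Alternatives covered the filter, variance model, array weights, scaling, probe set choice, sex, block, thresholds and left-out arrays.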

Additional observations from a re-analysis of the deposited data

How the results depend on the processing

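The count of members past the threshold was 0 under every alternative run, while the count over all probe sets (3) was 11 with robust eBayes, 5 with sex as a covariate, 17 at an adjusted p under 0.10, 4785 at an unadjusted p under 0.05, 3 to 46 with 1 array left out and 70 without both arrays numbered 1. With the replicate block, 2 of all probe sets and 0 members passed, and the block changed no call of a member. The differences of Cartpt, Mc3r, Pcsk1 and Cpe 1439437_x_at kept their sign throughout. With 1 array left out, Pomc 1433800_a_at ran from -0.0022 to 0.41, Pomc 1455858_x_at from -0.0074 to 0.41, Npy from -0.057 to 0.49, Cartpt from 0.17 to 0.42, Mc3r from 0.0085 to 0.083, Pcsk1 from 0.15 to 0.40 and Cpe 1415949_at from -0.039 to 0.036. Both Pomc differences were lowest without knockout array 1 and highest without wild type array 1. Without wild type arrays 2 and 3, which leaves only female arrays in wild type, the Pomc probe sets were at -0.11 and -0.068. Cpe 1415949_at was at -0.0074 with array weights, -0.021 after a second quantile normalization and -0.0082 with sex as a covariate.

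The count of correlated pairs (3) rose to 4 when each gene's probe sets were averaged. Mc3r and Cpe then passed too (r = -0.879; exact permutation, adjusted p = 0.0179). The count was 0 without the 2 arrays farthest from the median and 0 without both arrays numbered 1, with 5 arrays in each (exact permutation, lowest adjusted p = 0.125 in both). Over 5 arrays passing was nearly out of reach, so these counts do not decide whether the 3 correlations held. Their r was 0.805 to 0.961 without the farthest arrays and 0.805 to 0.951 without the arrays numbered 1. In both settings signs turned for Pomc with Npy (0.964 in both), Mc3r (-0.0763 in both) and Cpe (0.304 in both). They also turned for Mc3r with Pcsk1 (-0.0897 in both) and Cpe (0.127 in both). For these pairs and all others of Pomc, both settings left out the same 2 arrays. Equal values there are 1 calculation and not a second check. Npy with Pcsk1 was at 0.056 without the farthest arrays, 0.0339 with sexes centred and 0.938 without the arrays numbered 1, which also turned Npy with Cartpt (0.905), Npy with Mc3r (0.12) and Pcsk1 with Cpe (0.102). The cause was not tested. Removing both arrays numbered 1, removing wild type arrays 2 and 3, centring sexes and fitting arrays 1 to 3 without the block were chosen after seeing the data.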
